A study of Mus musculus with 46 samples.

Results

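The 43 genes described here are a listed set of mitosis genes: the cyclins and kinase that drive cells into mitosis, the mitotic kinases, the spindle checkpoint, and the proteins of kinetochore, spindle, cytokinesis and mitotic chromosome structure. They are a list of symbols with no threshold on their levels, chosen with earlier results of these data known, and all 43 were found among the 23329 gene symbols of the count table. RNA had been sequenced from 46 libraries of 23 mice that carried gliomas, with 1 library of microglia (MG, the brain's own macrophages) and 1 of bone marrow-derived macrophages (BMDM) from the tumour of each mouse. Every mouse was nTVA Ink4a/Arf KO/KO and was injected in the brain, at week 6 of age, with DF1 cells carrying RCAS-PDGFB-HA, a vector that delivers the growth factor PDGFB to cells with the TVA receptor. All groups therefore lack Ink4a/Arf (Cdkn2a), a locus of tumour suppressors that restrain the cell cycle. Both populations came from a gate for CD45+CD11b+ cells without Ly6C and Ly6G, which CD49d divided into MG (CD49d-) and BMDM (CD49d+). The 7 stages were vehicle (4 mice), 5 days of BLZ945 (4 mice), 5 days of IR (2 mice), 5 days of IR with BLZ945 (3 mice), and recurrent tumours after BLZ945 (2 mice), after IR (4 mice) and after IR with BLZ945 (4 mice). BLZ945 is an inhibitor of the CSF1 receptor, a receptor of microglia and macrophages, and IR stands for ionising radiation. The study set out to learn how both populations respond while tumours shrink under therapy and after they grow back. Doses, the time of recurrence and the number of sorted cells are not given in the labels.

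A cell enters mitosis when CDK1, bound to its B-type cyclins, becomes active. Aurora and Polo-like kinases then organise the spindle, kinetochores attach chromosomes to it, and the spindle checkpoint holds back the anaphase-promoting complex (APC/C) until every chromosome is attached. Most of these transcripts accumulate only in G2 and mitosis, so in a bulk sample they serve as markers of dividing cells. Both microglia and macrophages of gliomas can divide, and libraries of both were obtained after 5 days of BLZ945. In bulk libraries fewer dividing cells and less RNA per dividing cell cannot be told apart.

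Promoters of such genes are known for 2 short elements, the cell cycle homology region (TTTGAA) and CCAAT boxes. Of the 43 genes, 36 had RefSeq promoter windows (GRCm38.p6), 38 windows in all, searched over the 250 bases before the start. TTTGAA, read on both strands, was present in 13 windows (34.2%), against 16.0% of all 32851 windows of the genome table. CCAAT, also read on both strands, was present in 29 windows (76.3%), against 33.8% of all windows, and both elements in 12 (31.6%), against 5.55%. At least 2 CCAAT boxes were found in 19 windows (50%), against 10.1%. Overlapping matches of the 2 motifs can share at most 1 letter, and a match is a description of the letters, not a bound site. The 150 bases before the start are shown for 7 genes whose values recur below, from RefSeq, 5′ to 3′ on the gene's own strand, with both motifs, on either strand, in capitals.
Cdk1, chr10:69352913-69353062, minus strand: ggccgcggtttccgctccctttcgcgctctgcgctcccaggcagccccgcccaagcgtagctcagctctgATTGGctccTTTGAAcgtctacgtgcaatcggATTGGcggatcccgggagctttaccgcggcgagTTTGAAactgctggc
Cdc20, chr4:118437344-118437493, minus strand: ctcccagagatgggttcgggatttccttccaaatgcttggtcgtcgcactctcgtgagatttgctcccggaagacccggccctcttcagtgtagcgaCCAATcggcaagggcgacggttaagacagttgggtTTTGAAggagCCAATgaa
Ube2c, chr2:164769779-164769928, plus strand: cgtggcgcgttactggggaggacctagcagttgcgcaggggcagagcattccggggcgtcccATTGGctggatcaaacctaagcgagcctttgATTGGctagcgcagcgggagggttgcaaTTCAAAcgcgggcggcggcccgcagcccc
Top2a, chr11:99024190-99024339, minus strand: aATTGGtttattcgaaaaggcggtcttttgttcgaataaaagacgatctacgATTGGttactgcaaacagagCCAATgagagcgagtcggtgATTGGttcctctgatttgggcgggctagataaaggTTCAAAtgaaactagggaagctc
Mki67, chr7:135716380-135716529, minus strand: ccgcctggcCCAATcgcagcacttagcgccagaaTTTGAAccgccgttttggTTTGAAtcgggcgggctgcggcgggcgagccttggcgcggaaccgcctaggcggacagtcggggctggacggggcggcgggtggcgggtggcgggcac
Ccnb1, chr13:100786487-100786636, minus strand: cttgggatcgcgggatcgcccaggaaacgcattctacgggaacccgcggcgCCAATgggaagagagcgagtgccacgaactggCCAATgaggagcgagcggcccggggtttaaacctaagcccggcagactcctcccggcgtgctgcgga
Birc5, chr11:117849087-117849236, plus strand: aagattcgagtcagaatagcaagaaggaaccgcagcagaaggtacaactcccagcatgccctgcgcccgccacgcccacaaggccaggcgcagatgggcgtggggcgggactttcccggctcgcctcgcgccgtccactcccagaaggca
Cdk1 carries 2 homology regions and 2 CCAAT boxes in this stretch, Top2a carries 4 CCAAT boxes, and Birc5 carries neither element there. The genes themselves (GENCODE M21, GRCm38) span chr10:69335146-69352938 for Cdk1, chr13:100778650-100786570 for Ccnb1, chr11:117849251-117855743 for Birc5, chr11:98992943-99024189 for Top2a and chr7:135689784-135716361 for Mki67. No difference in the values below was tested against these letters.

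Libraries held between 3007379 and 16993474 counts, and all 43 genes passed the filter on low counts in the MG fit, in the BMDM fit and in the joint fit. The label of the sorted cells was checked against markers: summed over the fixed microglia list, the level was 9878 to 44449 CPM (counts scaled to library size, with TMM factors over the 46 libraries) in MG and 1150 to 12236 in BMDM, and Itga4, which encodes CD49d, was at 1.43 to 10.1 CPM in MG and 30.7 to 188 in BMDM. The 15 markers of blood-derived macrophages overlapped between the populations, with sums of 1209 to 10634 CPM in MG and 5149 to 29420 CPM in BMDM. After 5 days of BLZ945 those sums were 5094 to 7559 CPM in MG and 5149 to 14108 CPM in BMDM. There are 6 libraries that stand apart, and each count below is also given without them where it moves by over 1.5 times or the result rests on them; this setting was chosen after seeing the data. Where a library left out leaves a group with 1 library, the spread in the test comes from the other groups, and the lone library is assumed to vary as they do. For mouse 65698 (IR, 5 days) the sex-linked genes differed between its MG and its BMDM library, whereas they matched in the other 22 mice, so this pair may not come from 1 mouse. By the same genes, Xist exceeded the Y-linked genes in every library after 5 days of BLZ945. The Y-linked genes exceeded Xist in every recurrent library after IR, and vehicle held both kinds. Sex is therefore partly mixed with stage, and its part in the results was not tested. Fewer than 11000 genes reached 10 counts in 5 libraries: BMDM of mice 122 and 124 (BLZ945, 5 days), BMDM of mouse 65698, MG of mouse 65971 (IR with BLZ945, 5 days), which is also the shallowest, and MG of mouse 68344 (IR, recurrent). Reads of 10 members cannot be told apart from those of a gene that overlaps them, because the strand setting of the counting was not given: Ccna2, Cdc20, Ube2c, Cdca8, Kif4, Kif20a, Nusap1, Prc1, Ncapg and Ncapd2. Values are CPM throughout, and log2 fold changes come with a standard error worked back from the test. It is the size of the fold change divided by the square root of the F statistic.

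In vehicle tumours every member was detected in both populations. Per kilobase of exon, the highest mean levels in MG were those of Pbk (40.4 CPM per kb), a mitotic kinase, Ccnb2 (30.4) and Cdc20 (22.1), which switches on the APC/C. In BMDM of the same mice Ccnb2 (23.7 CPM per kb), Cdc20 (11.5) and Pbk (11.4) led. The lowest were Esco2, which acetylates cohesin (1.54 CPM per kb in MG and 1.04 in BMDM), and the kinetochore protein gene Cenpf (1.83 and 0.838). Summed over the 43 genes, the level in MG was 1439, 2916, 696 and 1377 CPM in mice 41, 65966, 65967 and 78, and 867, 816, 905 and 1452 CPM in their BMDM. Mouse 65966 was the highest MG library and mouse 65967 the lowest, and the 2 populations overlapped.

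**Figure D1:**
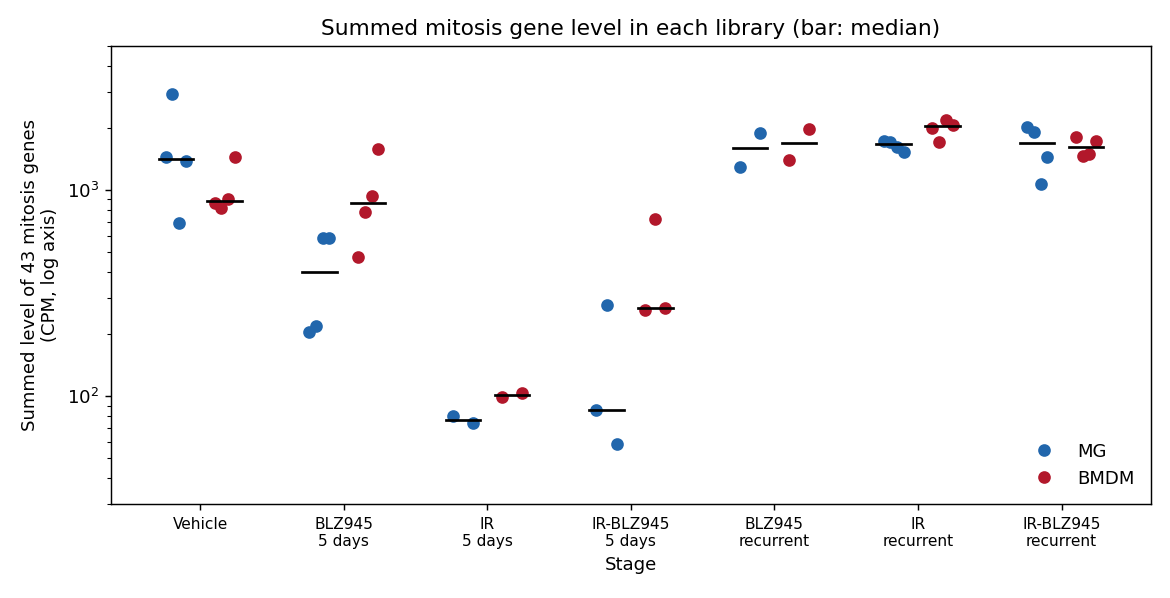
Summed CPM of the 43 mitosis genes in each library (log axis), by stage, for MG and BMDM; each point is 1 mouse and the bar is the group median. In MG the medians fall from 1408 CPM in vehicle to 402, 77.1 and 85.9 CPM in the 3 groups at 5 days and stand between 1596 and 1683 CPM in the recurrences; in BMDM the 5-day medians are 863, 102 and 269 CPM.

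In both populations the stage with the lowest median summed level was 5 days of IR. In MG the sum was 80.0 CPM in mouse 65698 and 74.2 CPM in mouse 65972, against a vehicle median of 1408 CPM. Of the 43 genes, 36 fell and none rose (edgeR's quasi-likelihood test, Benjamini-Hochberg adjusted p of at most 0.05), where 1.77% of all 14534 genes tested were called lower and 0.220% higher. The median log2 fold change of the 43 was -6.12, with a range of -10.65 to -0.94, beside 0.01 over all genes tested. In all 43 both IR libraries were below the lowest vehicle library, as they were for 14.2% of all genes. The 36 comprise all 4 cyclins and CDK, 8 of 9 mitotic kinases, all 3 checkpoint and APC/C genes, 7 of 8 kinetochore genes, 6 of 9 spindle genes, 1 of 2 cytokinesis genes, 4 of 5 chromosome genes and all 3 other markers.

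Ccnb1, the cyclin that activates CDK1 at mitotic entry, was at 0.911 and 0.576 CPM in the 2 IR libraries and at 59.7, 137, 23.7 and 50.3 CPM in vehicle. It fell by 6.47 ± 0.92 on the log2 scale (adjusted p = 0.000692, edgeR). Its partner Cdk1 was at 7.95 and 2.96 CPM, against 65.1, 110, 29.0 and 73.7 CPM. Cdk1 fell by 3.62 ± 0.61 (adjusted p = 0.00256), and of the 2 genes it kept more of its level after IR. Both IR libraries lay below every vehicle library for the pair.

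Among the kinases, Aurkb, the catalytic part of the chromosomal passenger complex, had the smallest p of the 43. It was at 0.663 and 0.494 CPM after IR and at 28.1, 43.1, 10.5 and 23.9 CPM in vehicle, and fell by 5.46 ± 0.70 (adjusted p = 0.000343, edgeR). Its partner in that complex, Birc5 (survivin), was at 0.0829 and 0.329 CPM, against 43.1, 75.5, 12.3 and 48.7 CPM, and fell by 7.68 ± 1.38 (adjusted p = 0.00415). The groups did not overlap for either gene. Pbk was at 0.249 and 0.165 CPM after IR, against 63.4, 129, 22.1 and 75.4 CPM, and fell by 8.36 ± 1.16 (adjusted p = 0.000692). Nek2, a kinase of centrosome separation, had no count in either IR library and was at least 149-fold lower than in vehicle (adjusted p = 0.00113). That bound, like the others below, sets a group without counts to a floor of 3 counts over the group.

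Tpx2, which activates Aurora A on spindle microtubules, was at 0.0829 and 0.659 CPM after IR and at 43.3, 81.9, 19.1 and 34.2 CPM in vehicle. It fell by 6.87 ± 0.96 (adjusted p = 0.000692, edgeR). Spag5, a protein of spindle and kinetochore, was at 0 and 0.0823 CPM, against 12.4, 24.7, 7.10 and 10.3 CPM (adjusted p = 0.000692). Fam64a, now named Pimreg, was at 0.0829 and 0.165 CPM, against 19.8, 26.7, 9.84 and 25 CPM. Its vehicle level was 159 times that after IR (95% counting interval 54.3 to 773; adjusted p = 0.000454). Each of these genes rests on a few reads per IR library, and all were below every vehicle library.

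Top2a, the topoisomerase that untangles sister chromatids, was at 0.166 and 0.494 CPM after IR and at 106, 219, 53.6 and 78.6 CPM in vehicle. It fell by 8.39 ± 1.54 (adjusted p = 0.00503, edgeR). Mki67, which encodes the proliferation antigen Ki-67, was at 0.166 and 1.07 CPM, against 56.5, 157, 38.6 and 46.9 CPM, and fell by 6.90 ± 1.16 (adjusted p = 0.00241). The 7 genes that did not pass were Cenpf, Ect2, Hmmr, Kif11, Kif2c, Ncaph and Ttk. Ncaph, a condensin subunit, was the highest of the 43 after IR, at 17.2 and 26.6 CPM, against 41.5, 60.9, 32.8 and 35.0 CPM in vehicle. With 2 mice the count rests on both: it was 6 without mouse 65972, 13 without mouse 65698, and 29 without the 6 libraries that stand apart. Each of these counts tests an IR group of 1 library (mouse 65698 in the first and mouse 65972 in the others), with the spread taken from the other groups. Glioma and oligodendrocyte precursor markers were at a summed 14.5 and 22.6 CPM after IR and 67.4 to 110 CPM in vehicle MG, with none of 16 tested called. Malat1, a nuclear RNA, was at 1903 and 2961 CPM after IR and at 489 to 1319 CPM in vehicle MG; the part of either in the result was not tested.

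A similar number of members passed in MG after 5 days of IR with BLZ945. Of the 43 genes 37 fell and none rose, where 3.89% of the genes tested were called lower and 9.55% higher. The median log2 fold change was -5.11 (range -10.76 to -0.14), beside -0.02 over all genes, and 40 genes were lower in all 3 libraries than in any vehicle library, as were 9.85% of all genes. By role the 37 are 4 of 4 cyclins and CDK, 7 of 9 kinases, 3 of 3 checkpoint genes, 6 of 8 kinetochore genes, 8 of 9 spindle genes, 2 of 2 cytokinesis genes, 4 of 5 chromosome genes and 3 of 3 other markers.

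Aurkb was at 0.440, 0 and 0.516 CPM in mice 65696, 65971 and 67537, against the 4 vehicle values above, and fell by 5.95 ± 0.63 (adjusted p = 1.99e-05, edgeR). Aurka, the Aurora kinase of the spindle poles, was at 0.220, 0 and 0.687 CPM, against 26.9, 50.7, 14.3 and 35.7 CPM, and fell by 6.25 ± 0.67 (adjusted p = 1.99e-05). Ccnb1 was at 0.110, 0.918 and 0 CPM and fell by 8.35 ± 0.93 (adjusted p = 2.58e-05). For these 3 genes every treated library was under 1 CPM and every vehicle library above 10 CPM. Kif20a, a motor of the central spindle, was at 1.10, 0 and 0.516 CPM, against 27.9, 50.2, 14.1 and 22.8 CPM, and fell by 5.40 ± 0.69. Fam64a had no count in the 3 libraries and was at least 158-fold lower (adjusted p = 2.23e-05). Pbk held 2 counts in the group, and its vehicle level was 843 times higher (95% counting interval 233 to 6960).

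The genes that did not pass after IR with BLZ945 were Cenpe, Cenpf, Hmmr, Plk1, Top2a and Ttk. Top2a was at 1.87, 49.6 and 2.58 CPM in mice 65696, 65971 and 67537, a log2 difference of -2.61 ± 0.91 from vehicle (adjusted p = 0.0572, edgeR). Cenpf was at 2.97, 57.8 and 4.47 CPM, and Ttk, a checkpoint kinase, at 3.85, 23.6 and 0.859 CPM. Mouse 65971, the shallowest library, held the high value each time, although 19 of the 43 genes had no count in it. Without the 6 libraries that stand apart, this one among them, 42 of the 43 fell. Mki67 was at 7.16, 12.5 and 2.49 CPM and fell by 3.29 ± 0.78 (adjusted p = 0.0137), Cdk1 was at 9.91, 23.3 and 6.96 CPM and fell by 2.30 ± 0.49 (adjusted p = 0.00778), and Birc5 was at 2.53, 0 and 0 CPM and fell by 5.46 ± 1.00 (adjusted p = 0.00279). Choroid plexus markers were at a summed 121 to 1738 CPM in these libraries and at 1.26 to 5.80 CPM in vehicle MG. Blood-derived macrophage markers were at 6145 to 10634 CPM, against 2501 to 6098 CPM, and neuron markers at 22.6 to 30.7 CPM, against 0.520 to 3.23 CPM. Microglia markers were at 18697 to 19549 CPM, against 20285 to 44449 CPM, and glioma markers at 29.99 to 66.1 CPM, against 67.4 to 110 CPM. Malat1 was at 1831 to 2386 CPM, above its vehicle values; the part of these in the result was not tested.

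**Figure D2:**
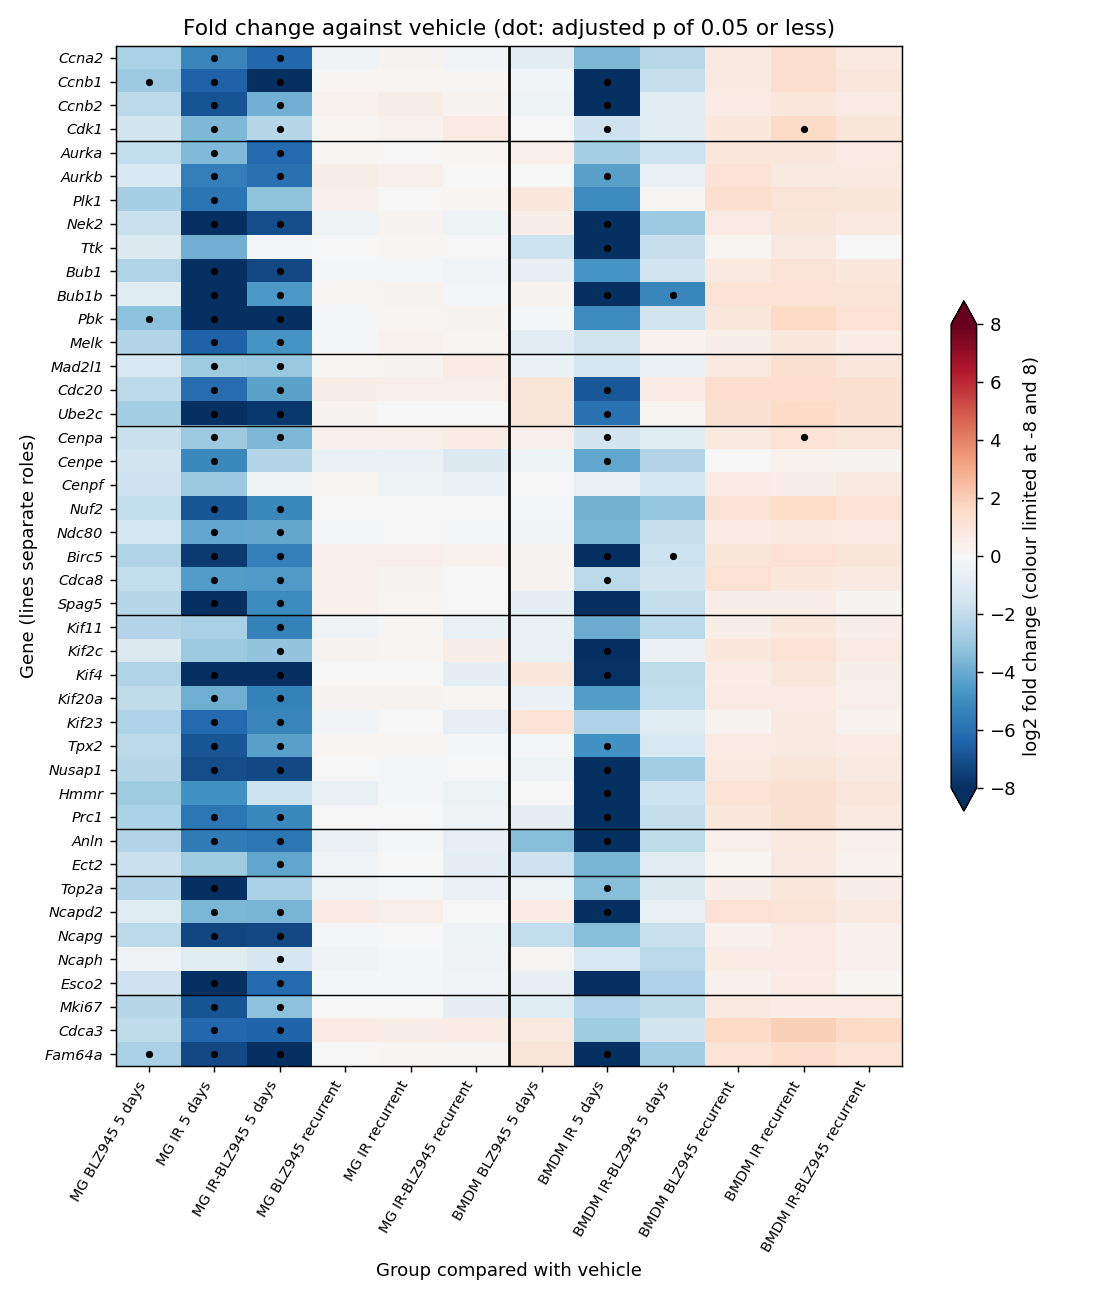
Log2 fold change against vehicle of each of the 43 genes (rows, grouped by role, with lines between roles) in the 6 treated stages of MG and BMDM (columns), with colours limited at -8 and 8 and a dot where the adjusted p is at most 0.05. Dots fill most of the MG columns for IR (36) and IR with BLZ945 (37) at 5 days, 23 rows of BMDM after IR, and few rows elsewhere.

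BLZ945 alone, given for 5 days, left MG at intermediate levels. The summed level was 205, 218, 587 and 586 CPM in mice 122, 123, 124 and 65975, each below the lowest vehicle library. Of the 43 genes 3 fell (Pbk, Ccnb1 and Fam64a) and none rose, where 0.0963% of the genes tested were called lower and 0.206% higher. All 43 fitted changes were negative, with a median of -2.14 (range -3.26 to -0.27) beside 0.01 over all genes. An unadjusted p under 0.05 was reached by 39 members, and by 1947 of all 14534 genes tested. In 23 members the 2 groups did not overlap, as in 3.80% of all genes. DESeq2 called 30. Malat1 was at 1501 to 5578 CPM after BLZ945, above every vehicle MG library; its part in the result was not tested.

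Pbk was at 2.06, 1.04, 10.5 and 15.6 CPM after BLZ945, against 63.4 to 129 CPM in 3 vehicle libraries and 22.1 CPM in the fourth, and fell by 3.26 ± 0.61 (adjusted p = 0.0339, edgeR). Ccnb1 was at 3.93, 4.27, 11.7 and 15.7 CPM and fell by 2.88 ± 0.54 (adjusted p = 0.0339). Fam64a was at 0.937, 1.46, 5.74 and 4.88 CPM and fell by 2.58 ± 0.49 (adjusted p = 0.0385). Mice 122 and 123 were lower than mice 124 and 65975 in each, and no treated library reached the lowest vehicle library. Of the genes that did not pass, Top2a was at 5.71, 6.03, 35.1 and 38.9 CPM (log2 difference -2.37 ± 0.79, adjusted p = 0.178) and Mki67 at 2.62, 9.57, 19.9 and 27.4 CPM (-2.28 ± 0.65, adjusted p = 0.108). Cdk1 was at 16.5, 17.1, 28.9 and 35.1 CPM (-1.45 ± 0.42, adjusted p = 0.111) and Birc5 at 1.22, 3.23, 9.02 and 19.3 CPM (-2.39 ± 0.72, adjusted p = 0.126).

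Which libraries enter sets how many pass after BLZ945 in MG. The count was 24 without the 6 libraries that stand apart, none of which is an MG library of vehicle or BLZ945, and 8 when both populations were fitted together. It was 0 without any of mice 122, 123, 124, 41, 65966 or 78, 15 without vehicle mouse 65967 and 21 without BLZ945 mouse 65975. Mice carry short or long numbers, both kinds among vehicle and BLZ945 mice, and with number length as a term it was 0. Set directly against BLZ945 alone, IR with BLZ945 had 28 genes lower and none higher in MG, where 2.81% of genes were called lower and 7.02% higher, with a median of -2.80 beside -0.02. Aurkb fell by 4.72 ± 0.62 (adjusted p = 0.000627, edgeR), Aurka by 4.26 ± 0.64 (adjusted p = 0.00109) and Ccnb1 by 5.47 ± 0.91 (adjusted p = 0.00283) in that comparison, while Cdk1 (-0.85 ± 0.46, adjusted p = 0.247), Top2a (-0.25 ± 0.84, adjusted p = 0.874) and Mki67 (-1.01 ± 0.72, adjusted p = 0.385) missed the threshold. The 28 became 16 without BLZ945 mouse 124 and 17 with number length as a term.

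**Figure D3:**
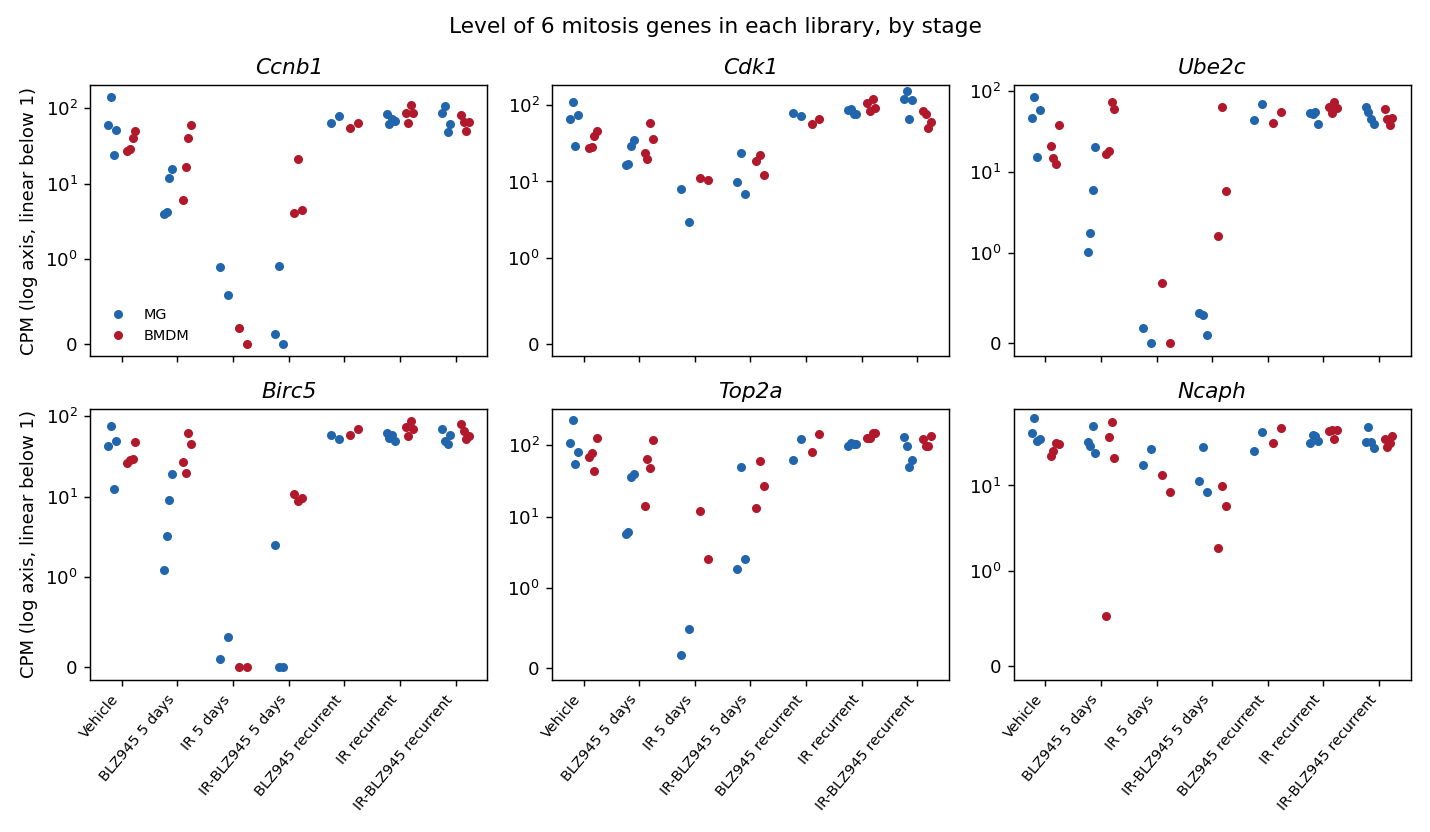
CPM of 6 of the genes (Ccnb1, Cdk1, Ube2c, Birc5, Top2a and Ncaph) in every library by stage and population; the axis is linear near 0 and logarithmic above, and each point is 1 library. Ccnb1, Ube2c and Birc5 drop to below 1 CPM in MG after IR, while Ncaph stays between 17.2 and 26.6 CPM.

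Genes of the same processes outside the 43 were read beside them, from lists chosen with results of these data known. Of 52 other spindle, kinetochore and cytokinesis genes tested in MG, 17 fell after IR (median -2.98) and 24 after IR with BLZ945, and 1 after BLZ945, Ska1, a spindle protein gene (fell by 3.34 ± 0.64, adjusted p = 0.0350, edgeR). Of 43 DNA replication genes, 11 fell after IR (median -2.17), 24 after IR with BLZ945 and none after BLZ945 (median -0.27). Rrm2 and Tk1, which make DNA precursors, fell by 7.75 ± 1.16 and 6.00 ± 0.94 after IR. Of 31 transcription factors and regulators of the cycle, 3 fell after IR, led by E2f8, and of 22 APC/C and cohesin genes none. Cdkn1a, the cyclin-dependent kinase inhibitor p21, rose: it was at 161 to 237 CPM in vehicle MG and at 2064 and 3520 CPM after IR, a log2 fold change of 3.82 ± 0.40 (adjusted p = 3.25e-05). Ccng1, like Cdkn1a a known target of p53, rose by 2.19 ± 0.25. Cdkn2a, the locus deleted in these mice, was at or below 2.44 CPM in every MG library.

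The balance between mitosis and replication genes varied across the MG stages. The summed CPM of the 43 divided by that of the replication list was 0.661 to 1.15 in vehicle MG and 0.209, 0.227, 0.25 and 0.611 after BLZ945. After BLZ945 the replication sum was 981, 959, 2350 and 958 CPM in mice 122, 123, 124 and 65975, against 1052 to 2542 CPM in vehicle. Only mouse 124 lay within the vehicle range, and the others were below it. The ratio was 0.121 and 0.125 after IR. After IR with BLZ945 it was 0.153, 0.564 and 0.104 in mice 65696, 65971 and 67537, where mouse 65971 was again the high library. In MG of recurrent tumours it was 0.739 to 1.03. These ratios carry no test.

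**Figure D4:**
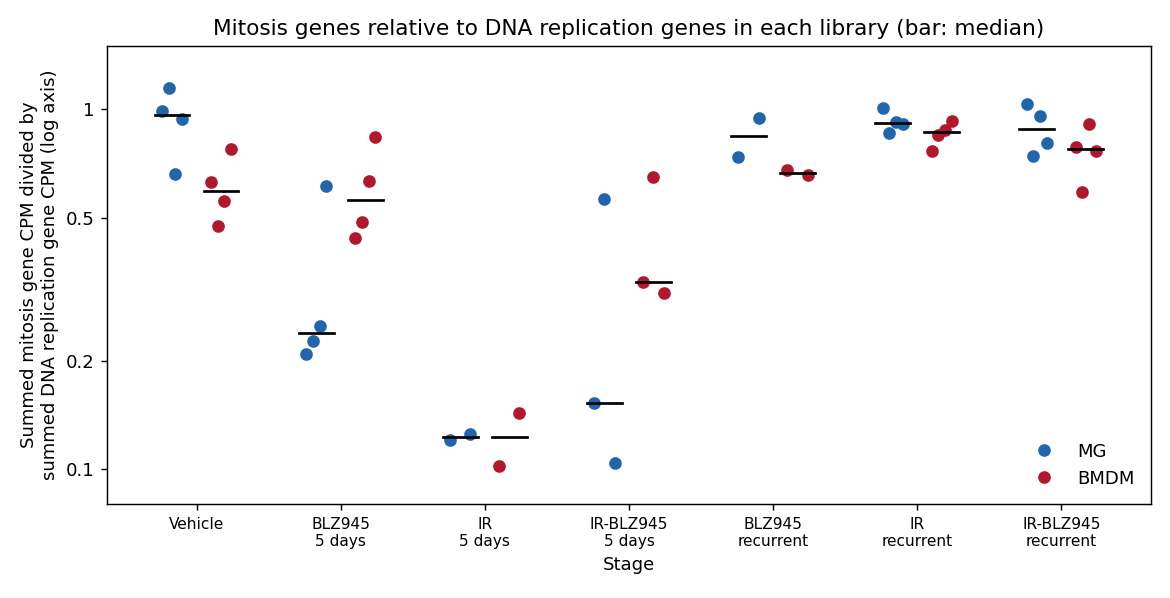
Summed CPM of the 43 mitosis genes divided by summed CPM of the replication list in each library, by stage and population; each point is 1 library and the bar is the group median. MG libraries after BLZ945 lie at 0.209 to 0.611 and after IR at 0.121 to 0.125, below the vehicle range of 0.661 to 1.15.

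In BMDM the response to IR went the same way, with fewer genes past the test. The summed level was 99.1 and 104 CPM after IR, against 816 to 1452 CPM in vehicle. Of the 43 genes 23 fell and none rose, where 0.721% of 14568 genes tested were called lower and 0.350% higher. The median was -4.72 (range -11.63 to -0.55), beside -0.16 over all genes, and 40 genes did not overlap with vehicle, against 13.2% of all genes. The 23 that fell comprise 3 of 4 cyclins and CDK, 4 of 9 kinases, 2 of 3 checkpoint genes and 4 of 8 kinetochore genes. The rest of the 23 are 6 of 9 spindle genes, 1 of 2 cytokinesis genes, 2 of 5 chromosome genes and 1 of 3 other markers. DESeq2 called 37. The count was 7 without mouse 65698 of the IR group, 13 without vehicle mouse 41, 13 without vehicle mouse 78, and 27 without the 6 libraries that stand apart. The 7 and the 27 test an IR group of 1 library, that of mouse 65972, with the spread taken from the other groups. Dendritic cell markers were at a summed 2944 and 3557 CPM after IR, against 1475 to 2143 CPM in vehicle BMDM, and none of 12 was called. Astrocyte markers were at 185 and 429 CPM, against 42.1 to 144 CPM, with 1 of 9 called higher, and neuron markers at 7.95 and 15.6 CPM, against 0.130 to 4.97 CPM. Neutrophil markers were at 233 and 252 CPM, against 270 to 1681 CPM; the part of these lists in the result was not tested.

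No count was recorded for 13 members in either BMDM library after IR. Birc5 was at 26.1, 28.5, 29.5 and 48.1 CPM in vehicle and was at least 252-fold lower (adjusted p = 2.17e-07, edgeR). Prc1, which bundles microtubules of the central spindle, was at 24.8, 30.3, 22.3 and 50.8 CPM in vehicle and at least 245-fold lower (adjusted p = 1.09e-05). Ncapd2, a condensin subunit, was at least 166-fold lower (adjusted p = 3.48e-06), and Hmmr, a spindle protein gene, at least 101-fold lower (adjusted p = 0.00227). Ccnb1 was at 0.191 and 0 CPM, and its vehicle level was 414 times higher (95% counting interval 115 to 3422). Tpx2 was at 0.0957 and 2.25 CPM, against 29.8, 29.1, 36.0 and 49.0 CPM, and fell by 4.84 ± 0.79 (adjusted p = 0.00185).

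Other members kept reads in BMDM after IR. Cdk1 was at 11.2 and 10.6 CPM, against 27.0, 28.2, 38.9 and 44.8 CPM, and fell by 1.63 ± 0.40 (adjusted p = 0.0489, edgeR). Top2a was at 12.1 and 2.58 CPM, against 67.0, 76.2, 43.3 and 124 CPM, and fell by 3.38 ± 0.75 (adjusted p = 0.0315). Mki67 was at 10.1 and 8.08 CPM, against 59.6, 46.9, 14.1 and 90.0 CPM, and did not pass (-2.48 ± 0.98, adjusted p = 0.20). All 3 were lower in both IR libraries than in any vehicle library. Cenpf overlapped, at 8.81 and 8.25 CPM against 4.49 to 24.6 CPM. In other lists, 10 of 52 spindle and kinetochore genes and 8 of 43 replication genes fell, and Cdkn1a rose by 2.43 ± 0.34, from 243 to 416 CPM in vehicle to 1604 and 1999 CPM.

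After BLZ945 no member passed in BMDM by edgeR, where 3.56% of the genes tested were called lower and 1.95% higher. DESeq2 called 1 member. At an unadjusted p under 0.05 (edgeR) there was 1 member, against 3403 of all 14568 genes tested. The median was -0.19 (range -3.40 to 1.07), beside -0.06 over all genes. The summed level was 474, 787, 939 and 1588 CPM in mice 122, 123, 124 and 65975, which overlaps vehicle at both ends. Anln, an actin-binding protein of the cleavage furrow, had the smallest p: it was at 0, 1.19, 0 and 5.92 CPM, against 16.7, 6.23, 27.6 and 28.7 CPM (-3.40 ± 1.01, adjusted p = 0.0512). Birc5 was at 26.6, 19.5, 62.6 and 45.0 CPM, close to its vehicle values, and Ccnb1 ran from 6.08 to 60.1 CPM. Mki67 was at 2.52, 45.4, 2.57 and 54.4 CPM, with the low values in mice 122 and 124, the BMDM libraries with few genes, where 10 and 7 of the 43 members had no count. Without those and the other libraries that stand apart none passed. Dendritic cell markers were at a summed 3619 to 5062 CPM after BLZ945, above every vehicle BMDM library, with 6 of 12 called higher. Microglia markers were at 1150 to 3321 CPM, against 6307 to 11470 CPM, with 8 of 15 called lower; the part of both was not tested.

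After IR with BLZ945, 2 of the 43 fell in BMDM and none rose, where 0.233% of genes were called lower and 0.336% higher. The median was -1.72 (range -5.23 to 0.67), beside 0.05. An unadjusted p under 0.05 was found for 21 of the 43, and for 2217 of all 14568 genes tested. Birc5 was at 10.9, 8.80 and 9.49 CPM, against 26.1 to 48.1 CPM, and fell by 1.72 ± 0.35 (adjusted p = 0.0284, edgeR). Bub1b, a checkpoint kinase, was at 0, 1.62 and 0.241 CPM, against 22.8, 15.6, 14.2 and 42.6 CPM, and fell by 5.23 ± 1.18 (adjusted p = 0.0456). Mouse 65971 had the highest summed level of the 3 (720 CPM, against 263 and 269 CPM), with Ube2c at 63.1 CPM and Cdc20 at 82.2 CPM. The count was 0 without mouse 65696, 67537, 65966 or 78, 1 without mouse 41, 4 without mouse 65971 and 19 without the 6 libraries that stand apart, and 9 by DESeq2.

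Against BLZ945 alone, 6 genes were lower in BMDM after IR with BLZ945 and none higher (0.570% and 3.01% of all genes; median -1.39 beside 0.07). They were Birc5, which fell by 1.95 ± 0.36 (adjusted p = 0.00865, edgeR), the centromeric histone gene Cenpa, which fell by 1.39 ± 0.29 (adjusted p = 0.0152), and Bub1b, Cdca8, Kif4 and Nek2. The count was 13 by DESeq2, 3 with number length as a term and 15 without the 6 libraries; leaving out single mice gave 2 to 8. Choroid plexus markers were at 9.84 to 708 CPM in BMDM after IR with BLZ945 and at 0.0651 to 0.748 CPM in vehicle BMDM. Dendritic cell markers were at 3808 to 5750 CPM and neuron markers at 20.2 to 100.2 CPM, both above every vehicle BMDM library, and microglia markers at 2177 to 3431 CPM, below every one; the part of these lists was not tested.

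Comparing the populations within a mouse, the summed level was on both sides of equal in vehicle and higher in BMDM in all 9 pairs at 5 days. The MG to BMDM ratio of the summed level was 1.66, 3.57, 0.768 and 0.949 in vehicle mice 41, 65966, 65967 and 78. It was 0.433, 0.277, 0.625 and 0.369 after BLZ945, 0.807 and 0.713 after IR (the 0.807 is that of mouse 65698, whose libraries differ in sex-linked genes and may not be of 1 mouse), and 0.326, 0.385 and 0.218 after IR with BLZ945. In the recurrences it ran from 0.720 to 1.30. Gene by gene the IR pairs were mixed: 15 members were lower in MG in mouse 65698 and 19 in mouse 65972. After IR 13 members were higher in both MG libraries than in either BMDM library, and 7 were lower in both. The share over all genes is not given for these counts, so they are not read as a result about the members. In BLZ945 mouse 124, 22 members were lower in MG, and in the other pairs at 5 days 29 to 40.

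**Figure D5:**
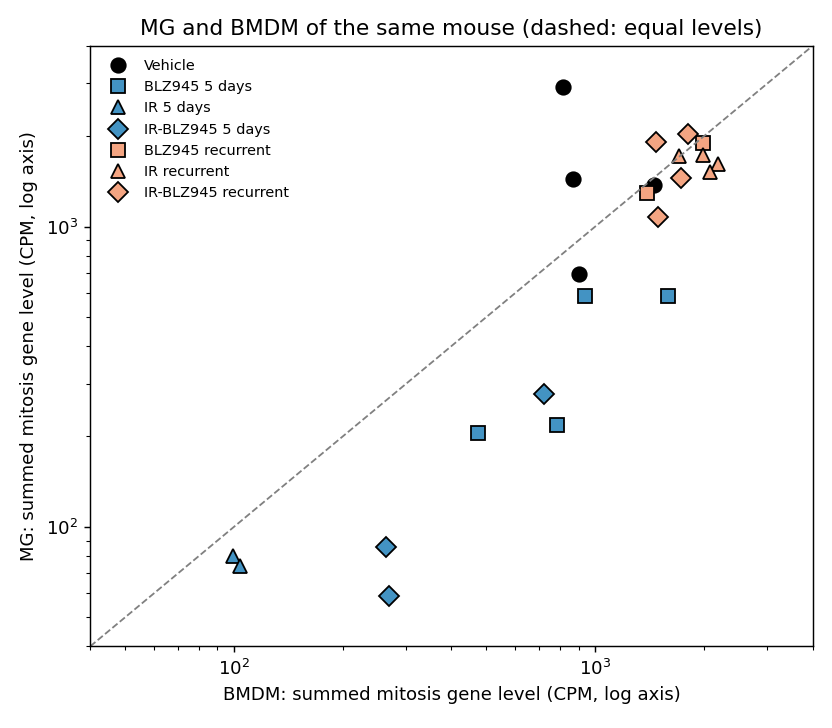
Summed CPM of the 43 genes in MG (vertical) and in BMDM (horizontal) labelled with the same mouse, log axes, 1 point per labelled mouse and a dashed line where they are equal. The 9 mice at 5 days lie below the line, with MG to BMDM ratios of 0.218 to 0.807. Gene by gene, 15 of the 43 were lower in MG in IR mouse 65698 and 19 in IR mouse 65972.

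In vehicle no member differed between MG and BMDM by edgeR, nor by DESeq2. By edgeR 5.30% of 15901 genes were called lower in MG and 3.84% higher. There were 3 members at an unadjusted p under 0.05 (edgeR), against 3282 of the 15901 genes. All 43 were fitted higher in MG, with a median of 0.56 beside 0.09, and Cdk1 had the smallest p (1.00 ± 0.36, adjusted p = 0.0791). Without the 6 libraries that stand apart, none of them a vehicle library, 4 members were called higher in MG. After BLZ945 14 genes were lower in MG and none higher (10.3% and 11.6% of all genes; median -1.32 beside 0.03). Kif23, a motor of the central spindle, was at 1.87, 0.936, 5.01 and 9.49 CPM in MG and at 49.7, 30.5, 30.5 and 83.1 CPM in BMDM, a log2 difference of -3.48 ± 0.70 (adjusted p = 0.000245, edgeR). Cenpa was at 9.93, 7.60, 12.5 and 16.1 CPM in MG and at 47.0, 23.2, 49.3 and 41.1 CPM in BMDM (-1.80 ± 0.42, adjusted p = 0.00129). Birc5 differed by -2.22 ± 0.59 (adjusted p = 0.00498), Cdca8, its partner borealin, by -1.86 ± 0.49, and Kif4, a chromosome-bound motor, by -2.73 ± 0.73. For these 5 genes no MG library reached the lowest BMDM library. The count was 6 without the MG library of mouse 123, 8 without that of mouse 122 and 24 without the 6 libraries that stand apart, 23 of them lower in MG.

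After IR with BLZ945 23 genes were lower in MG than in BMDM and none higher (7.11% and 5.68% of all genes; median -2.95 beside -0.03). Aurkb was at 0.440, 0 and 0.516 CPM in MG and at 7.45, 28.3 and 14.7 CPM in BMDM (-5.39 ± 0.76, adjusted p = 5.38e-06, edgeR). Ccnb1 was at 4.12, 21.3 and 4.50 CPM in BMDM, above every MG value (-5.64 ± 0.96, adjusted p = 9.46e-05). Ube2c, the ubiquitin-conjugating enzyme of the APC/C, was at 0.330, 0.306 and 0.0859 CPM in MG and at 1.60, 63.1 and 5.79 CPM in BMDM (-6.70 ± 1.19, adjusted p = 0.000154). Top2a, Mki67 and Cdk1 overlapped between the populations and did not pass.

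After IR alone 4 genes were lower in MG and 3 higher (4.13% and 4.96% of all genes; median -0.03 beside 0.19). Top2a was at 0.166 and 0.494 CPM in MG and at 12.1 and 2.58 CPM in BMDM (-4.42 ± 1.26, adjusted p = 0.0197, edgeR), and Mki67 and the kinase gene Melk were lower by 3.86 ± 1.19 and 4.53 ± 1.13. Kif23 was the fourth. Ncapd2, Kif2c and Prc1 had no count in BMDM and were at least 17.6-fold, 36.5-fold and 7.42-fold higher in MG. The 7 became 2 without the libraries of mouse 65698 and the others that stand apart, which leaves 1 IR library in each population, and 11 by DESeq2 (5 lower and 6 higher).

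Whether the change from vehicle differed between the populations was tested as an interaction over the 46 libraries. After IR with BLZ945 11 genes had a more negative change in MG than in BMDM and none a more positive one, where 0.302% of all genes were called in that direction and 0.0566% in the other; the median difference was -3.33 beside -0.11. They were the kinase genes Aurkb (-5.46 ± 0.89, adjusted p = 0.00504, edgeR), Aurka (-4.61 ± 0.97), Pbk (-7.95 ± 1.55) and Melk (-5.01 ± 1.08), the cyclin gene Ccnb1 (-6.54 ± 1.11), the APC/C genes Ube2c (-7.94 ± 1.38) and Cdc20 (-4.96 ± 1.05), and Cenpa, Kif4, Ncapd2 and Cdca3. Several of these sizes, among them those of Pbk, Ube2c, Ccnb1 and Kif4, are fitted values that rest on few reads in MG. After BLZ945 the difference passed for Cenpa (-2.27 ± 0.57, adjusted p = 0.0301), Kif23 (-3.58 ± 0.92, adjusted p = 0.0335) and Ube2c (-3.76 ± 1.01, adjusted p = 0.0437), where 0.365% and 1.29% of all genes were called; the median was -1.80 beside 0.05. After IR it passed for 1 gene, Ncapd2 (adjusted p = 0.0221), where 0.00629% and 0.0692% of all genes were called; it was at 2.73 and 1.98 CPM in MG and at 0 in both BMDM libraries. With the mouse as a block, since MG and BMDM came from the same mice, the counts were 7, 6 and 1. Without the 6 libraries that stand apart they were 22, 9 and 0. Leaving out each library in turn gave 5 to 17 after IR with BLZ945, 0 to 9 after BLZ945 and 0 to 5 after IR. After IR, DESeq2 called 5 genes, 3 of them further down in MG.

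In recurrent tumours the summed level of the members in MG lay within the vehicle range in every library. No member passed against vehicle after BLZ945, IR or IR with BLZ945 by edgeR, nor by DESeq2. Of all genes 0.557%, 0.138% and 2.78% were called lower and 2.97%, 4.20% and 2.04% higher (edgeR). None of the 43 had an unadjusted p under 0.05, against 2120, 1805 and 3222 of all 14534 genes tested. The medians of the 43 were 0.02, 0.09 and -0.03, beside 0.00, -0.00 and -0.02 over all genes. The fitted changes ran from -0.60 to 0.57, from -0.54 to 0.50 and from -1.07 to 0.67. Cdk1 after IR with BLZ945, at 119, 149, 65.8 and 117 CPM against a vehicle maximum of 110 CPM, had the smallest p there (0.67 ± 0.41, adjusted p = 0.353). Ccnb1 was at 62.2 and 79.0 CPM after BLZ945, at 81.6, 60.7, 70.9 and 66.2 CPM after IR and at 86.0, 105, 47.4 and 60.2 CPM after both. Vehicle libraries ran from 23.7 to 137 CPM, around every recurrent value.

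Against the 5-day libraries of the same treatment, 41 genes were higher in recurrent MG after IR (3.43% of all genes lower and 8.13% higher; median 6.20 beside 0.07). After IR with BLZ945 37 were higher (16.6% and 11.5%; median 4.86 beside -0.08), and after BLZ945 18 (1.92% and 6.32%; median 2.19 beside -0.03); none was lower. These comparisons share their 5-day libraries with those against vehicle above. For IR the 5-day group is 2 libraries, 1 of them of mouse 65698, so that leaving this mouse out leaves 1 library. Aurkb rose by 5.80 ± 0.71 after IR, from 0.663 and 0.494 CPM to 27.7, 36.8, 30.8 and 30.4 CPM (adjusted p = 0.000412, edgeR), and the 4 recurrent libraries lay close together. After BLZ945 Ccnb1 rose by 2.98 ± 0.60 (adjusted p = 0.00382), Pbk by 3.13 ± 0.67 (adjusted p = 0.00533) and Fam64a by 2.61 ± 0.55 (adjusted p = 0.00584), while neither Mki67 (2.25 ± 0.73, adjusted p = 0.0613) nor Top2a (2.10 ± 0.89, adjusted p = 0.15) passed. The 18 became 3 without recurrent mouse 70696, 9 without recurrent mouse 67668, 7 without mouse 122, 8 without mouse 123, 1 with number length as a term and 31 without the 6 libraries that stand apart. Glioma and oligodendrocyte precursor markers moved too: their summed level was 67.4 to 110 CPM in vehicle MG, 6.84 to 93.2 CPM after BLZ945 and 14.5 to 22.6 CPM after IR at 5 days, with Nkx2-2 and Olig2 among the markers at 0 in both. It was 495 to 996 CPM in the BLZ945 recurrences, 454 to 941 CPM in the IR recurrences and 114 to 452 CPM after both, with 11, 12 and 7 of 16 tested markers higher than in vehicle; their part in the members' levels was not tested.

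In BMDM the fitted levels of the recurrences were mostly above vehicle, and few members passed. After IR Cdk1 and Cenpa rose and none fell, where 1.02% of all genes were called lower and 0.844% higher; the median was 0.92 beside 0.02. Cdk1 was at 104, 81.6, 118 and 89.8 CPM, against 27.0, 28.2, 38.9 and 44.8 CPM, and rose by 1.53 ± 0.31 (adjusted p = 0.0153, edgeR). Cenpa was at 64.9, 52.6, 75.4 and 64.0 CPM, against 25.1, 25.9, 33.2 and 36.5 CPM, and rose by 1.11 ± 0.26 (adjusted p = 0.0320). Every recurrent library was above every vehicle library for both genes, as for 30 of the 43 genes and 13.6% of all genes. The 2 calls became 0 without mouse 41, 68345 or 68346, 1 without mouse 65966, 68343, 68344 or 78, and 7 without the 6 libraries that stand apart.

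After BLZ945 and after IR with BLZ945 no member differed from vehicle in recurrent BMDM by edgeR, and DESeq2 called 0 and 1. At an unadjusted p under 0.05 (edgeR) there were 5 members in each, against 1183 and 1504 of all 14568 genes tested. Of all genes 0% were called in either direction in the first comparison, and in the second 0% were called lower and 0.0275% higher; the medians of the 43 were 0.74 and 0.69 beside 0.02 and 0.03. Cenpa was at 72.3, 57.8, 47.5 and 40.6 CPM after IR with BLZ945, above every vehicle library (0.90 ± 0.26, adjusted p = 0.217). Glioma markers were at 10.05 to 20.4 CPM in vehicle BMDM and at 174 to 194, 179 to 400 and 56.3 to 301 CPM in the recurrences after BLZ945, IR and both. Of 15 tested markers 4 were called higher after IR and none in the others; their part was not tested. Malat1 was at 2555 to 9381 CPM in vehicle BMDM and 214 to 1775 CPM in the recurrences, and Lars2 at 7.87 to 216 CPM and 2756 to 8067 CPM. Dendritic cell markers were at a summed 546 to 1342 CPM and neutrophil markers at 103 to 192 CPM in the recurrences, both below every vehicle BMDM library; the part of these was not tested either.

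Against the 5-day BMDM of the same treatment, 38 genes were higher in the recurrences after IR (5.48% of all genes lower and 7.06% higher; median 5.53 beside 0.21). After IR with BLZ945 11 were higher (1.92% and 1.78%; median 2.34 beside -0.01), and after BLZ945 2 (1.65% and 5.17%; median 0.96 beside 0.08), with none lower. After IR Cdk1 rose by 3.16 ± 0.44 (adjusted p = 0.000142, edgeR) and Cenpa by 2.58 ± 0.37 (adjusted p = 0.000174). After IR with BLZ945 Birc5 rose by 2.70 ± 0.37 (adjusted p = 0.000472), from 10.9, 8.80 and 9.49 CPM to 78.8, 65.3, 51.5 and 57.1 CPM, with a wide gap between the groups. After BLZ945 the 2 were Anln (3.82 ± 1.11, adjusted p = 0.0418) and Prc1 (1.64 ± 0.48, adjusted p = 0.0451), and none passed without the 6 libraries. For IR with BLZ945 the count was 26 by DESeq2, 17 when both populations were fitted together, 35 without the 6 libraries, 5 without mouse 67537, 6 without mouse 67169 and 7 without mouse 67543 or 67947. For IR it was 21 without mouse 65698, which leaves 1 library at 5 days.

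Between the populations no member differed in the recurrences after BLZ945, IR and both by edgeR, nor by DESeq2. At an unadjusted p under 0.05 (edgeR) there were 0, 0 and 1 members, against 660, 1215 and 2320 of all 15901 genes tested. Of all genes 0.0818%, 1.36% and 2.77% were called lower in MG and 0%, 0.547% and 1.64% higher. The medians of the 43 were -0.13, -0.29 and -0.06, each beside 0.00. After IR 14 genes were lower in every MG library than in any BMDM library, as were 10.7% of all genes, with Kif23 at 22.2 to 25.4 CPM in MG and 32.3 to 44.9 CPM in BMDM (-0.65 ± 0.63, adjusted p = 1).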

How the data were processed

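The series held 1 table of raw counts of reads per gene symbol, deposited by the authors for 46 libraries (total RNA, Smart-Seq kit, which has no molecular identifiers). The tools named, per the submitters' processing notes, are STAR 2.5.0e, CASAVA 1.8, DESeq2 and HTSeq, and the genome is mm10; neither annotation nor strandedness is given in the sources used here. Of 23329 symbols 1535 had no count. Totals ran from 3007379 to 16993474, and intervals and floors cover counting error only. No libraries of a group were duplicates (smallest chi-square per degree of freedom 10.7).

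Groups are the labelled stage and cell type, and replicates are mice. The test was edgeR 4.0.16 (R 4.3.3, limma 3.58.1), the quasi-likelihood test with TMM, robust dispersion and filterByExpr (minimum count 10, minimum total 15), in 1 fit of the 23 MG libraries, 1 of the 23 BMDM libraries and 1 of all 46 for comparisons between populations and for interactions; 14534, 14568 and 15901 genes were tested. P-values were adjusted over all genes tested (Benjamini-Hochberg) and called at 0.05. A group without counts was set to a floor of 3 counts for a bound; groups of 1 to 3 counts got a ratio with its 95% exact interval. Gene positions and exon lengths are GENCODE M21, promoters RefSeq GRCm38.p6.

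Alternatives were DESeq2 1.42.0, RLE scaling, no filter, 1 fit of both populations, the length of the mouse number (short or long) as a term, the mouse as a replicate block, each library left out, and, added after seeing the data, 6 libraries left out. MG and BMDM are paired because the labels give the same mouse (the sex-linked genes of mouse 65698 differed within its pair); the deviations of paired libraries correlated at -0.09 to 0.44 (median 0.15), above 0.1 in 13 of 23 mice. The members and lists were chosen with earlier results of these data known. Named in full are Mki67, Top2a, Ccnb1, Cdk1 and Birc5 in the main comparisons, up to 6 members with the smallest p that passed (2 where none did), and up to 3 genes of each other list.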

Additional observations from a re-analysis of the deposited data

Results flagged for a closer look

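In groups of 4 mice, a library far from the other 3 was looked for in the summed level of the 43 mitosis genes and in Mki67, Top2a, Ccnb1, Cdk1 and Birc5, over 48 groups of values. There were 5 such values, in 4 libraries, and chance gives about 1 in 20 groups. In vehicle BMDM mouse 78 stood above the others with a summed level of 1452 CPM, and also with Birc5 at 48.1 CPM. Mki67 was far above the rest of its group at 157 CPM in vehicle MG of mouse 65966, at 83.2 CPM in MG of mouse 67169 (IR with BLZ945, recurrent) and at 102 CPM in BMDM of mouse 68346 (IR, recurrent).

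The change from vehicle differed between MG and BMDM for 15 results (interaction test of edgeR, negative where the change was lower in MG, log2 scale). After 5 days of BLZ945 the difference was -3.76 for Ube2c, -2.27 for Cenpa and -3.58 for Kif23. After 5 days of IR it was 7.28 for Ncapd2, a fitted value that rests on BMDM libraries without a count and is no bound. After 5 days of IR with BLZ945 it was -6.54 for Ccnb1, -4.61 for Aurka, -5.46 for Aurkb, -7.95 for Pbk, -5.01 for Melk, -4.96 for Cdc20, -7.94 for Ube2c, -2.69 for Cenpa, -6.45 for Kif4, -3.13 for Ncapd2 and -4.99 for Cdca3. Several of these are fitted values that rest on few reads in MG. In mice 65696, 65971 and 67537 Pbk held 0, 1 and 1 counts and Ube2c 3, 1 and 1. Ccnb1 held 1, 3 and 0 counts and Kif4 1, 0 and 0.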

How the results depend on the processing

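Counts are members called, and the cause of each shift was not tested. Shares over all genes are given for the main edgeR fits only, not for the settings below. MG, BLZ945 at 5 days: 3 became 30 by DESeq2, 0 with the number-length term, 8 in 1 fit and 24 without the 6 libraries (0 to 21 leaving out single libraries). MG, BLZ945 recurrent against 5 days: 18 became 29, 1 (length) and 31 (3 to 24). MG, IR with BLZ945 against BLZ945: 28 became 17 with the length term (16 to 30). MG after IR gave 6 to 40.

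BMDM: BLZ945, 1 by DESeq2, length term and 1 fit (0 to 2); IR, 37 by DESeq2 (7 to 33); IR with BLZ945, 1 without filter, 9 by DESeq2, 1 in 1 fit, 19 without the 6 (0 to 4). Recurrent against vehicle: IR, 1 without filter, with length and in 1 fit, 7 without the 6 (0 to 2); IR with BLZ945, 1 by DESeq2. Recurrent against 5 days: BLZ945, 1 by RLE and in 1 fit, 0 without filter, with length and without the 6 (0 to 5); IR, 21 to 37; IR with BLZ945, 26 by DESeq2, 17 in 1 fit, 35 without the 6 (5 to 15). IR with BLZ945 against BLZ945: 13, 3 (length) and 15 (2 to 8).

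MG against BMDM: vehicle 4 without the 6 (0 to 1); BLZ945 24 (6 to 16); IR 11 by DESeq2, in the other direction on balance, and 2 without the 6 (2 to 9). Interactions: BLZ945, 14 by DESeq2, 6 with the mouse as replicate block, 9 without the 6 (0 to 9); IR, 5 by DESeq2, in the other direction, and 0 without the 6 (0 to 5, where the 5 without BMDM of mouse 65972 also reversed); IR with BLZ945, 22, 7 with the block and 22 (5 to 17). The block moved no other count by over 1.5 times.

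Of 180 settings 44 moved a count by over 1.5 times; of 1588 settings for single members that passed 1371 kept the call, 217 lost it and none reversed. Members without a count in a group, 13 in BMDM after IR among them, are given only as bounds.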
